A study of Mus musculus with 9 samples.

Results

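The growth hormone, STAT5 and IGF1 axis was followed in mouse liver through 10 genes, which were picked by symbol out of 17846 listed genes for their place in the pathway, with no threshold on a measured value. Earlier results of these data were known when these 10 genes were chosen. They were the receptor Ghr; the secreted products Igf1, Igfals, Igfbp1 and Igfbp2; the transcription factors Stat5a and Stat5b; the feedback inhibitors Socs2 and Cish; and the repressor Bcl6. All 10 passed the filter on low counts and were among the 13619 genes tested. The livers came from 9 wild-type male mice (C57/BL), with 3 mice per group and 1 RNA sequencing library per mouse. Control mice (replicates 3, 4 and 29) ate normal chow. NASH mice (replicates 5, 19 and 20) ate the Ath diet, which contained cholesterol and cholate, for 20 weeks and stayed sedentary. NASH+Exercise mice (replicates 8, 18 and 22) ate the same diet for 20 weeks and ran on a treadmill during its last 8 weeks, starting at 20 weeks of age. Food was withheld overnight before tissue was taken from all 3 groups, so every value below is from fasted liver. No trained mice on chow were analysed here, so training could be compared only on the Ath diet.

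Growth hormone from the pituitary binds its receptor on hepatocytes, and the receptor-bound kinase JAK2 then phosphorylates STAT5. Phosphorylated STAT5 enters the nucleus and switches on Igf1, Igfals, Socs2 and Cish, and it represses Bcl6. The liver supplies most IGF1 in blood, where it travels with an IGF binding protein and the acid-labile subunit encoded by Igfals. Igfbp1 and Igfbp2 encode other IGF binding proteins, which rise in liver on fasting and are held down by insulin. In rodents the pulses of growth hormone differ between the sexes, and STAT5b maintains much of the male pattern of liver genes. STAT5 acts through phosphorylation, which transcript levels do not measure.

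The 10 genes were placed on the mouse genome build GRCm38.p6. Ghr lay on chromosome 15 from 3317755 to 3583352, Igf1 on chromosome 10 from 87858265 to 87937047, and Igfals on chromosome 17 from 24877844 to 24882011. Igfbp1 lay on chromosome 11 from 7197787 to 7202546 and Igfbp2 on chromosome 1 from 72824480 to 72852474. Stat5b (chromosome 11, 100780731 to 100859004) and Stat5a (chromosome 11, 100859351 to 100885169) were neighbours, with 346 bases between them. Socs2 lay on chromosome 10 from 95383903 to 95417321, Cish on chromosome 9 from 107296659 to 107302784, and Bcl6 on chromosome 16 from 23965050 to 23988866.

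STAT proteins bind the palindrome TTCNNNGAA, which reads the same on both strands, and RefSeq promoter windows of GRCm38.p6 were searched for these letters as a map of where a STAT protein could bind near the starts of the axis genes. Each window covered 250 bases before to 50 bases after an annotated start, and 9 of the 10 genes had at least 1 window, with 16 windows in all. Socs2 had no window, so its promoter was not searched. The motif occurred in 5 of the 16 windows, whereas 8.3% of all 32851 mouse windows held it. These were 1 window of Cish, 2 of Bcl6 and 2 of Igfals, so 3 of the 9 genes held it. The genes were picked for their place in the pathway, so this share is a description. Sites outside the windows were not searched. The stretches of 30 bases around the matches are printed because these 3 genes span a feedback inhibitor, a repressed gene and the one axis gene that was a DEG between NASH and Control. Each is written 5′ to 3′ on the strand of its gene, with the motif in capitals.
Cish: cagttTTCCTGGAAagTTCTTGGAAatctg
Bcl6 first start: tagcaaattagTTCTCAGAAttccagaggc
Bcl6 second start, outer match: caggccgcggcTTCCTGGAAagttacttct
Bcl6 second start, middle match: gggcaggagtgTTCTGTGAAatccttagag
Bcl6 second start, inner match: gatcgactacgTTCCGGGAAtgagagggct
Igfals first start: cgatctataatTTCTCAGAAaagaggctga
Igfals second start: tctgccaggtgTTCCTAGAAgaggccctgg

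The Cish stretch (chr9:107296654-107296683, plus strand) carried 2 matches, at the first transcribed base and 11 bases after it. Windows with 2 or more matches made up 0.457% of all windows. In Bcl6 (minus strand), the match at chr16:23988952-23988981 began 118 bases before its start site. The second Bcl6 window held matches 168, 122 and 88 bases before its start, in chr16:23981433-23981462, chr16:23981387-23981416 and chr16:23981353-23981382. The Igfals matches (plus strand) began 236 bases before one start, in chr17:24877597-24877626, and 58 bases before another, in chr17:24878162-24878191. A match of letters does not show that a factor bound there in these livers.

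The libraries held 20085976 to 22495408 estimated counts each. CPM values, counts scaled to a common library total with the trimmed mean of M values (TMM), were used to compare one gene between groups. TPM values, which also divide by transcript length, were used to compare different genes within a group. Differences between groups were tested with edgeR's quasi-likelihood test on all 9 mice, and p-values were adjusted by the Benjamini-Hochberg method over the 13619 genes; a gene that also differed by more than 1 on the log2 scale is called a differentially expressed gene (DEG). The hepatocyte markers (10 genes) summed to between 126000 and 146200 CPM in Control livers and between 82450 and 112100 CPM in NASH livers. Macrophage markers (8 genes) summed to between 113 and 202 CPM in Control and between 1093 and 1253 CPM in NASH. CPM values are relative to the rest of the library. In whole liver, fewer hepatocytes, less RNA per hepatocyte and more RNA from other cells therefore cannot be told apart.

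By TPM, Igfbp2 was the most abundant of the axis transcripts in Control liver, at 1494 ± 399 TPM (mean ± SD, n = 3). Ghr followed at 224 ± 15.8 TPM, above every Control value of the remaining 8 genes. Igfbp1 (140 ± 15.5 TPM), Igf1 (115 ± 34.1 TPM) and Igfals (113 ± 14.1 TPM) formed a middle tier whose neighbours in the order overlapped. Socs2 (30.2 ± 20.8 TPM), Bcl6 (20.7 ± 16.9 TPM) and Stat5b (16.9 ± 1.44 TPM) came next and overlapped among themselves in that order, below all Igfals values and, for Stat5b, above all Cish values. Cish (6.26 ± 5.04 TPM) and Stat5a (5.39 ± 0.04 TPM) were lowest and could not be ordered between themselves. Thus mRNAs for secreted products and the receptor stood above those for the transcription factors and inhibitors in Control liver. In NASH+Exercise liver Igfbp1 dropped out of the middle tier, to 36.2 ± 11.9 TPM, below all Igfals values there and overlapping with Socs2.

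**Figure D1:**
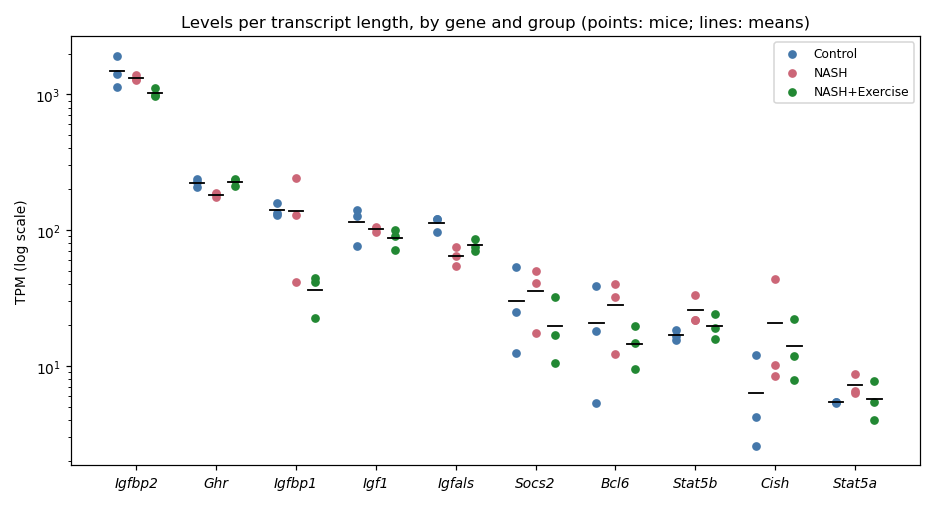
Levels of the 10 axis transcripts in TPM (log axis) in the livers of Control, NASH and NASH+Exercise mice, with 1 point per mouse. Igfbp2 lies highest in every group, and Stat5a has the lowest mean in every group, at 5.39, 7.19 and 5.69 TPM for Control, NASH and NASH+Exercise.

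The comparison of NASH with Control asked how the Ath diet altered the axis. Ghr, Igf1, Igfals and Igfbp2 fell, each with all 3 NASH mice below all 3 Control mice in CPM. Igfals fell by more than the 1 log2 unit set for a DEG, and Ghr, Igf1 and Igfbp2 by less. Thus 1 of 10 members was a DEG, lower, where 3.03% of all genes tested were DEGs of that direction, and 4 of 10 passed the adjusted p alone, all lower, where 14.4% of all genes were lower and 35.6% passed in either direction. Groups did not overlap for 4 of 10 members, against 49.6% of all genes. The median log2 fold change was -0.25 over the 10 members and 0.01 over all genes tested.

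Igfals, which encodes the acid-labile subunit that keeps IGF1 in long-lived complexes in blood, was at 171, 201 and 121 CPM in Control replicates 3, 4 and 29. In NASH it was at 70.0, 53.2 and 83.5 CPM in replicates 5, 19 and 20. Every NASH mouse was therefore below the lowest Control mouse. The log2 fold change was -1.25 (SE 0.21), a level 2.39-fold lower (edgeR's quasi-likelihood test, Benjamini-Hochberg adjusted p = 0.000949). Igfals remained a DEG when each of the 6 mice was left out in turn, with log2 fold changes between -1.47 and -1.10.

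Igf1, the main circulating growth factor induced by growth hormone, was at 608, 427 and 598 CPM in Control replicates 3, 4 and 29. It was at 352, 347 and 388 CPM in NASH replicates 5, 19 and 20. The groups did not overlap, although Control replicate 4 lay much nearer to the NASH mice than the other Control mice did. The log2 fold change was -0.59 (SE 0.16; edgeR's quasi-likelihood test, Benjamini-Hochberg adjusted p = 0.0147). The adjusted p of Igf1 was 0.0576 without Control replicate 3 and 0.0502 without NASH replicate 5, so its call was lost without either mouse. In TPM the groups overlapped, at 76.5 to 141 in Control and 96.0 to 105 in NASH.

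Ghr, the growth hormone receptor and the entry point of the axis, was at 389, 323 and 335 CPM in Control replicates 3, 4 and 29. The 3 NASH mice lay close together, at 247, 239 and 250.1 CPM in replicates 5, 19 and 20. All NASH mice were lower than all Control mice, by a log2 fold change of -0.51 (SE 0.13; edgeR's quasi-likelihood test, Benjamini-Hochberg adjusted p = 0.0116). The call of Ghr held without each of the 6 mice, with 0.0493 as its highest adjusted p, reached without Control replicate 3.

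Igfbp2, an IGF binding protein secreted by hepatocytes, was at 906, 1330.4 and 1361.5 CPM in Control replicates 3, 4 and 29. NASH replicates 5, 19 and 20 were at 767, 698 and 832 CPM. All NASH mice were lower, with Control replicate 3 nearest to them, and the log2 fold change was -0.65 (SE 0.17; edgeR's quasi-likelihood test, Benjamini-Hochberg adjusted p = 0.0149). Without NASH replicate 19 its adjusted p was 0.057, and the call was lost. In TPM the Igfbp2 groups overlapped, at 1140.3 to 1926.7 in Control and 1270.9 to 1398.5 in NASH.

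The scaling between libraries bore on 3 of these 4 calls. With library size alone, the log2 fold change at the median of all genes moved from 0.01 to 0.36, and Igfals alone of the members passed, at a log2 fold change of -0.89, which is short of a DEG. Ghr was then at -0.16, Igf1 at -0.26 and Igfbp2 at -0.30, and relative to that median they were at -0.52, -0.62 and -0.66. On TPM, Ghr and Igfals passed as lower in limma, neither as a DEG, and Igf1 and Igfbp2 did not pass. The hepatocyte markers, of which 3 of 10 passed and were lower, had a median log2 fold change of -0.50, close to those of Ghr, Igf1 and Igfbp2, while the macrophage markers were higher in 8 of 8 genes with a median of 2.99. The part of this shift in the fall of the axis genes was not tested.

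**Figure D2:**
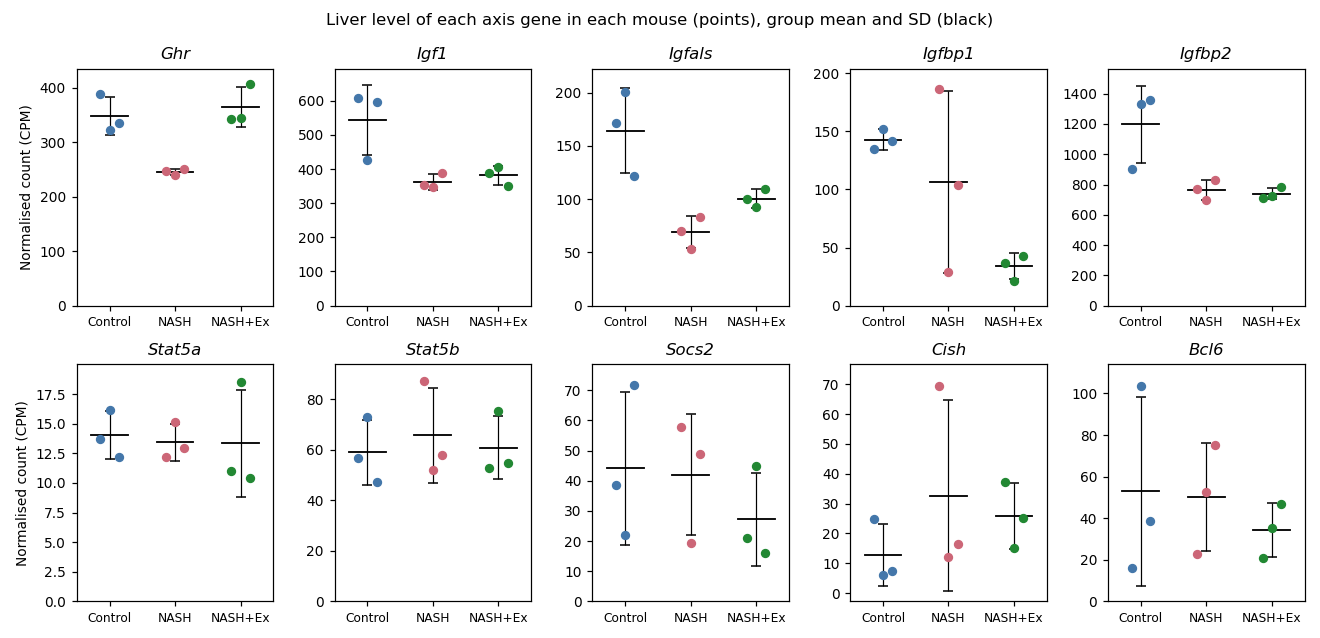
CPM of each of the 10 axis genes by group, with 1 point per mouse, a line at the mean of 3 mice and bars of 1 SD; NASH+Ex stands for NASH+Exercise, and each panel has its own linear axis. Ghr, Igf1, Igfals and Igfbp2 show 3 NASH points below 3 Control points, whereas Igfbp1, Socs2, Cish and Bcl6 scatter widely within groups.

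The remaining 6 members did not pass. Igfbp1, an insulin-suppressed IGF binding protein, was at 135, 152 and 141 CPM in Control replicates 3, 4 and 29. In NASH it was at 186, 29.3 and 103 CPM in replicates 5, 19 and 20, so that NASH replicate 5 exceeded all Control mice and NASH replicate 19 was far below them. Its log2 fold change was -0.43 (SE 0.52; edgeR's quasi-likelihood test, Benjamini-Hochberg adjusted p = 0.567). The Control mice differed by 1.13-fold between the lowest and the highest, and the NASH mice by 6.36-fold.

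Stat5b, the main STAT5 protein of liver, was at 56.7, 72.8 and 47.4 CPM in Control replicates 3, 4 and 29 and at 87.2, 51.8 and 58.0 CPM in NASH replicates 5, 19 and 20. Its log2 fold change was 0.16 (SE 0.23; edgeR's quasi-likelihood test, Benjamini-Hochberg adjusted p = 0.642), and the groups overlapped. In TPM, by contrast, the 3 NASH mice (21.7 to 33.4) were above the 3 Control mice (15.6 to 18.4), and Stat5b passed as higher in limma on log2(TPM + 1), with a log2 difference of 0.55 and an adjusted p of 0.0451. Relative to the median of all genes on that scale the difference was 0.21. Stat5a, its close relative, ranged from 12.2 to 16.2 CPM in Control and from 12.2 to 15.2 CPM in NASH, with a log2 fold change of -0.06 (SE 0.22). Reads from stretches that Stat5a and Stat5b share could be divided between them by the counting, so their separate levels are less certain than their sum.

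Socs2 encodes a ligase adaptor that limits growth hormone receptor signalling and is among the most direct STAT5 targets. It was at 38.6, 21.96 and 71.8 CPM in Control replicates 3, 4 and 29 and at 57.9, 19.4 and 48.8 CPM in NASH replicates 5, 19 and 20. The groups covered the same range, and the log2 fold change was -0.07 (SE 0.53). Cish, another STAT5-induced inhibitor and the gene with the tandem motif at its start site, was at 24.7, 6.17 and 7.45 CPM in Control replicates 3, 4 and 29. NASH replicates 5, 19 and 20 were at 69.5, 12.0 and 16.5 CPM. In both groups 1 mouse stood well above the other 2, and the log2 fold change of 1.35 (SE 0.74) did not pass (edgeR's quasi-likelihood test, Benjamini-Hochberg adjusted p = 0.187). It was 0.15 without NASH replicate 5 and 2.25 without Control replicate 3. Bcl6, a repressor that STAT5 turns down, was at 16.1, 104 and 38.9 CPM in Control replicates 3, 4 and 29 and at 23.0, 52.5 and 75.0 CPM in NASH replicates 5, 19 and 20. Its log2 fold change was -0.08 (SE 0.63), with the Control mice alone spanning 6.44-fold.

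The comparison of NASH+Exercise with NASH asked what treadmill training did to the axis during the diet. No member passed the adjusted p in edgeR, where 0.162% of all genes did (0.11% higher and 0.0514% lower) and 0.14% were DEGs. At an unadjusted p under 0.05, Ghr and Igfals were higher, 2 of 10 members against 4.6% of all genes, and Igfbp1 was lower, 1 of 10 against 10.7%. DESeq2 on the 6 mice passed 2 members at the adjusted p alone, Ghr and Igfals, both higher, where 1.72% of the genes to which it gave an adjusted p were, and neither DESeq2 nor limma on TPM called any member as a DEG. Groups did not overlap for 2 of 10 members, Ghr and Igfals, against 24.1% of all genes. The hepatocyte markers summed to between 93090 and 119400 CPM and the macrophage markers to between 875 and 1009 CPM in the trained mice, with median log2 differences from NASH of 0.26 and -0.34; their part in the differences below was not tested.

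Ghr was at 342, 344 and 406 CPM in NASH+Exercise replicates 8, 18 and 22, against 239 to 250.1 CPM in the sedentary NASH mice. All 3 trained mice lay within or above the range of Control (323 to 389 CPM). The log2 difference from NASH was 0.57 (SE 0.13), or 1.49-fold, in edgeR's quasi-likelihood test with a p of 0.00118 and a Benjamini-Hochberg adjusted p of 0.122. DESeq2 gave 0.62 with an adjusted p of 0.000429. Over the other edgeR and limma alternatives the adjusted p of Ghr lay between 0.0682 and 0.348, with the difference above 0 in all of them. Against Control the trained mice differed by 0.06 (SE 0.13; edgeR's quasi-likelihood test, Benjamini-Hochberg adjusted p = 0.78).

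Igfals was at 99.8, 92.2 and 109 CPM in NASH+Exercise replicates 8, 18 and 22. These values lay above the 53.2 to 83.5 CPM of NASH and below the 121 to 201 CPM of Control, so the 3 groups were separate. The log2 difference from NASH was 0.54 (SE 0.20; edgeR's quasi-likelihood test, Benjamini-Hochberg adjusted p = 0.255), and DESeq2 gave 0.60 with an adjusted p of 0.0399. Over the other alternatives the adjusted p of Igfals lay between 0.138 and 0.578.

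Igf1 did not share this pattern. It was at 390, 405 and 350.2 CPM in NASH+Exercise replicates 8, 18 and 22, which overlapped with the 347 to 388 CPM of NASH. The log2 difference was 0.08 (SE 0.16; edgeR's quasi-likelihood test, Benjamini-Hochberg adjusted p = 0.866). It turned to -0.12 with library size alone and to -0.22 on log2(TPM + 1). Igfbp2 was likewise at 713, 724 and 785 CPM in replicates 8, 18 and 22, overlapping with NASH, with a log2 difference of -0.05 (SE 0.17).

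Igfbp1 was at 37.0, 21.4 and 42.9 CPM in NASH+Exercise replicates 8, 18 and 22. All 3 trained mice were below all Control mice and below NASH replicates 5 and 20, but NASH replicate 19 (29.3 CPM) fell within their range. The log2 difference from NASH was -1.65 (SE 0.54; edgeR's quasi-likelihood test, Benjamini-Hochberg adjusted p = 0.215), and without NASH replicate 5 it was -0.97. Igfbp1 thus had the largest difference of the 10 members in this comparison (3.15-fold), and the 6.36-fold range within NASH was wider than it.

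Among the signalling genes, Stat5b was at 52.6, 75.3 and 54.6 CPM in NASH+Exercise replicates 8, 18 and 22 and differed from NASH by -0.11 (SE 0.23) on the log2 scale. Stat5a was at 11.04, 18.6 and 10.4 CPM in the same replicates, a log2 difference of -0.01 (SE 0.22). Both overlapped with NASH. Socs2 was at 20.9, 44.8 and 16.1 CPM, with a log2 difference from NASH of -0.62 (SE 0.54; edgeR's quasi-likelihood test, Benjamini-Hochberg adjusted p = 0.627). Cish was at 37.4, 15.2 and 25.1 CPM, a log2 difference of -0.34 (SE 0.71). Bcl6 was at 21.1, 35.1 and 46.9 CPM, a log2 difference of -0.55 (SE 0.63). None of these 3 separated the trained from the sedentary mice.

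The comparison of NASH+Exercise with Control shares its mice with the other comparisons and shows where the trained livers stood relative to chow. Igf1, Igfals, Igfbp1 and Igfbp2 were lower at the adjusted p alone, 4 of 10 members against 9.58% of all genes, and none was higher. Igfbp1 was the DEG, 1 of 10 members against 3.07% of genes called lower. Groups did not overlap for these 4 members, against 38.6% of all genes. The log2 differences were -0.51 (SE 0.16) for Igf1, -0.71 (SE 0.20) for Igfals, -2.08 (SE 0.54) for Igfbp1 and -0.70 (SE 0.17) for Igfbp2. Igfbp1 stood 4.23-fold below Control (edgeR's quasi-likelihood test, Benjamini-Hochberg adjusted p = 0.0205). Ghr was the one gene of those lower in NASH that was not lower in the trained mice than in Control.

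These calls rested on few mice. The adjusted p of Igfbp1 rose to 0.0756 without Control replicate 4, 0.0547 without Control replicate 29, 0.059 with NASH+Exercise replicate 8 left out and 0.0667 with replicate 18 left out, while its log2 difference stayed between -2.29 and -1.84. Igfals lost its call without Control replicate 3 (0.0791), Control replicate 4 (0.0844), NASH+Exercise replicate 8 (0.0773) or NASH+Exercise replicate 18 (0.0911). Igf1 kept its call only without Control replicate 4 (0.00497), and was otherwise between 0.0685 without NASH+Exercise replicate 18 and 0.13 without Control replicate 3. It also lost its call with library size alone (0.197), in edgeR on 6 mice (0.102) and in limma on TPM (0.279 and 0.288 with pseudocounts of 0.1 and 1). Igfbp2 lost it without NASH+Exercise replicate 8 (0.0532) or 18 (0.0509) and in limma on log2(TPM + 1) (0.0533). With no filter on low counts Igfbp1 was at 0.0602. In fits of the 6 compared mice alone, which leave out the widely spread NASH mice, Igfbp1 kept its call. Its adjusted p was then 0.00115 in edgeR's quasi-likelihood test and 8.16e-15 in DESeq2.

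**Figure D3:**
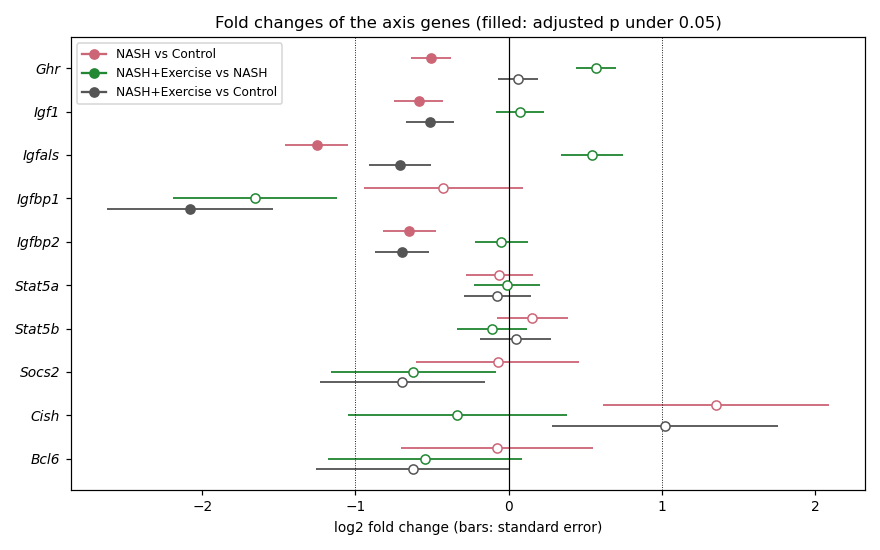
Log2 fold changes of the 10 axis genes in the 3 comparisons, with bars of 1 standard error from the edgeR fit of 9 mice and dotted lines at the DEG limits of -1 and 1. Filled points passed the adjusted p; they mark 4 genes in NASH against Control, 0 in NASH+Exercise against NASH and 4 in NASH+Exercise against Control.

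The members differed widely in how much mice of one group varied. The pooled standard deviation within groups on the log2 CPM scale was 0.12 for Ghr, smaller than in all but 10.4% of the genes tested. Igf1 (0.18) and Igfbp2 (0.21) lay below the median of all genes (0.23), and Igfals (0.29), Stat5a (0.30) and Stat5b (0.33) were somewhat above it. Socs2 (0.82), Igfbp1 (0.84), Bcl6 (0.98) and Cish (1.06) varied more than 97.4%, 97.7%, 98.7% and 99.0% of genes. Ghr, Igf1, Igfbp2, Igfals, Stat5a and Stat5b thus varied less within groups than Socs2, Igfbp1, Bcl6 and Cish. The secreted products lay on both sides of this divide.

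The mice that were high were not the same for each of the variable genes. Control replicate 4 had the highest Bcl6 (104 CPM) and the lowest Socs2 (21.96 CPM), Cish (6.17 CPM) and Igf1 (427 CPM) of its group. NASH+Exercise replicate 22 likewise had the highest Bcl6 (46.9 CPM) and the lowest Socs2 (16.1 CPM) and Igf1 (350.2 CPM) of its group, but an intermediate Cish. In NASH, by contrast, replicate 20 had both the highest Bcl6 (75.0 CPM) and the highest Igf1 (388 CPM). There, replicate 5 had the lowest Bcl6 (23.0 CPM) and the highest Socs2, Cish, Stat5b and Igfbp1. NASH replicate 19 broke this opposition, with the lowest Socs2 and Cish of its group and an intermediate Bcl6. These orders rest on 3 mice per group and are a description.

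**Figure D4:**
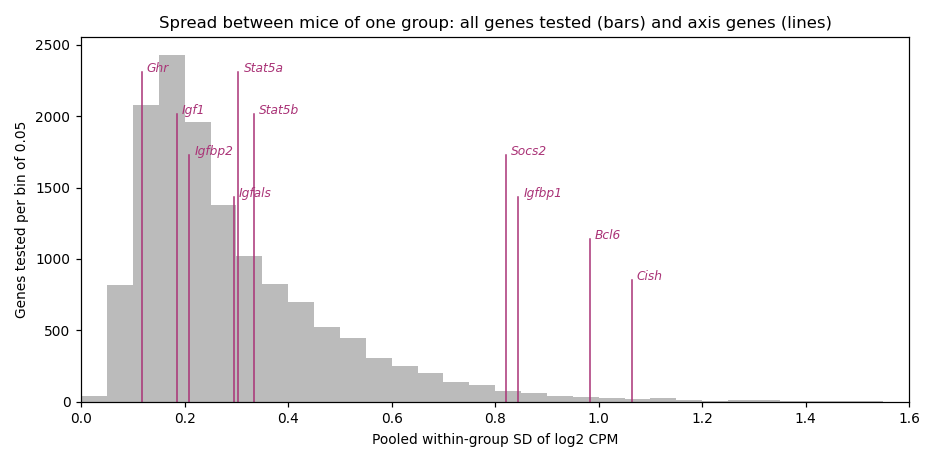
Distribution over the genes tested of the pooled standard deviation within groups (log2 CPM), with the 10 axis genes marked as lines. Ghr lies in the low tail at 0.12, and Socs2, Igfbp1, Bcl6 and Cish lie in the high tail between 0.82 and 1.06.

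Within each liver, ratios of functionally linked transcripts were compared by exact two-sided permutation tests, whose smallest possible p with 3 mice against 3 is 0.1; 4 ratios in 3 comparisons gave 12 tests. The log2 ratio of Igfals to Igf1 in TPM was 0.01 ± 0.61 (SD, n = 3) for Control, -0.66 ± 0.26 for NASH and -0.17 ± 0.23 for NASH+Exercise. NASH and NASH+Exercise did not overlap, with a difference of 0.49 at the smallest p (exact permutation p = 0.1, adjusted p = 0.4). The log2 ratio of Igfbp2 to Igfbp1 was 3.39 ± 0.26 for Control, 3.60 ± 1.28 for NASH and 4.89 ± 0.49 for NASH+Exercise, and the difference of 1.498 between NASH+Exercise and Control also reached the smallest p (exact permutation p = 0.1, adjusted p = 0.4). The ratio of Stat5a to Stat5b stayed between -1.82 and -1.64 in the mean of each group, with an exact permutation p of 0.2 or more. The ratio of Cish to Socs2 was -2.33 ± 1.30 for Control, -1.08 ± 0.91 for NASH and -0.48 ± 1.35 for NASH+Exercise, with an exact permutation p of 0.2 or more. No adjusted p was below 0.4.

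Reads of Ghr also carried a trace of transcript length, since dividing the estimated count by FPKM gives the effective length that the counting assigned to the gene, up to the scale of the library. This quantity was chosen after the values had been seen. It was 2451, 2002 and 2500 bases in Control replicates 3, 4 and 29 and 2565, 2792 and 2717 bases in NASH replicates 5, 19 and 20. All NASH mice were longer than all Control mice, a pattern found in 3.25% of the 9047 tested genes with an FPKM of at least 1 in every mouse. NASH+Exercise replicates 8, 18 and 22 were at 2650, 2596 and 2530 bases, also above Control, a pattern of 4.23% of the genes, and overlapping with NASH. Annotated Ghr transcripts run from 472 to 4175 bases, with the coding transcripts Ghr-201 at 4175 and Ghr-202 at 1213 bases, and the gene is known for a short form that encodes the soluble growth hormone binding protein. Whether the share of any form changed was not tested.

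Around the axis, a list of 30 other genes of growth hormone receptor signalling was examined. In NASH against Control, 7 of 30 were DEGs, all higher, where 15.3% of all genes were; at the adjusted p alone 14 were higher and 3 lower, against 21.2% and 14.4% of all genes. Sirpa, a receptor of myeloid cells that restrains phagocytosis, was at 6.71 to 10.6 CPM in Control and 84.7 to 122 CPM in NASH, a log2 fold change of 3.65 (SE 0.25). Socs1, an inhibitor of cytokine receptors, was at 0.50 to 0.82 CPM in Control and 2.095 to 2.74 CPM in NASH, a log2 fold change of 1.97. Sirpa and Socs1 act in immune cells as well, and the macrophage markers rose with them; the part of those cells in the change was not tested. Jak2, the kinase bound to the growth hormone receptor, was higher in NASH by 0.94 on the log2 scale, and Prlr, the related prolactin receptor, was lower by a log2 fold change of -0.88. Both passed the adjusted p but were not DEGs, and they are named here after their values were seen.

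In NASH+Exercise against NASH, 0 of these 30 genes passed in edgeR's quasi-likelihood test (2 higher and 5 lower at an unadjusted p under 0.05, against 4.6% and 10.7% of all genes) and 0 were DEGs in DESeq2. In NASH+Exercise against Control, Socs3, Socs1, Sirpa and Sh2b2 were higher DEGs and Prlr and Irs2 lower DEGs, 4 and 2 of 30 against 10.4% and 3.07% of all genes. Irs2, the insulin receptor substrate, was at 16.7 to 36.1 CPM in Control and 5.07 to 9.77 CPM in the trained mice, a log2 difference of -1.78; these 6 are named after their values were seen.

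Of 19 other genes of the IGF system, 12 were abundant enough to test. In NASH against Control, 5 of the 12 were DEGs that rose and 1 was a DEG that fell, against 15.3% and 3.03% of all genes. Htra1, a protease that cleaves IGF binding proteins, was at 0.83 to 1.395 CPM in Control and 2.78 to 4.27 CPM in NASH (log2 fold change 1.73, SE 0.29). Igf2bp2, an RNA binding protein named for Igf2, was at 1.67 to 2.47 CPM in Control and 5.04 to 5.70 CPM in NASH (log2 fold change 1.44, SE 0.28). Adam12, a protease of IGF binding proteins, was near the detection limit in Control (0.11 to 0.16 CPM) and at 0.47 to 1.32 CPM in NASH. Igf2, the fetal growth factor, was at 0.78 to 1.58 CPM in Control and 0.30 to 0.79 CPM in NASH, a log2 fold change of -1.22 (SE 0.42; edgeR's quasi-likelihood test, Benjamini-Hochberg adjusted p = 0.0445). Igf1r, the receptor for IGF1, and Igfbp7 were the other 2 that rose. Stellate cell markers summed to between 147 and 270.2 CPM in Control and between 382 and 532 CPM in NASH, with 4 of 8 higher at the adjusted p, and 4 of 6 endothelial markers were higher too; their part in the rise of the IGF system genes was not tested. Against NASH, training gave 0 calls in edgeR (1 higher and 3 lower of 12 at an unadjusted p under 0.05, against 4.6% and 10.7% of all genes) and 0 DEGs in DESeq2. Against Control, Adam12, Igf1r, Htra1 and Igf2bp2 were higher DEGs in the trained mice (10.4% of all genes were), and their count of 4 was 2 without Control replicate 4, Control replicate 29, NASH+Exercise replicate 8 or NASH+Exercise replicate 22.

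Genes expressed more in male than in female liver are a classical readout of the pulsed growth hormone pattern acting through STAT5b. Of 22 listed, 21 were tested. In NASH against Control, 7 of 21 were DEGs, all lower, where 3.03% of all genes were, and the median log2 fold change was -0.85. The hepatocyte markers had a median of -0.50 in the same comparison, and their part in the fall of the list was not tested. Cyp8b1, the enzyme that steers bile acid synthesis towards cholate, was at 651 to 1537 CPM in Control and 1.54 to 5.44 CPM in NASH. The Ath diet itself contained cholate, and the part of dietary cholate in this fall was not tested. Susd4, a complement regulator, was at 31.6 to 54.8 CPM in Control and 2.52 to 4.04 CPM in NASH, a log2 fold change of -3.59 (SE 0.31). Elovl3, a fatty acid elongase, was at 565 to 1036 CPM in Control and 92.6 to 143 CPM in NASH, a log2 fold change of -2.82 (SE 0.81).

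With training, 5 of the 21 male-biased genes were DEGs, all higher than in sedentary NASH, where 0.103% of all genes were. The fold change was above 0 in 21 of 21, against 45.1% of all genes, with a median of 0.78 on the log2 scale against -0.03 over all genes, and groups did not overlap for 15 of 21, against 24.1% of all genes. The list was chosen with earlier results of these data known, so these shares are a description and not independent evidence. The hepatocyte markers had a median log2 difference of 0.26 in this comparison, and their part in the rise of the list was not tested. Cyp7b1, the oxysterol 7-alpha hydroxylase, was at 40.1 to 62.6 CPM in NASH and 137 to 316 CPM in NASH+Exercise, beside 187 to 276 CPM in Control (log2 difference from NASH 2.06, SE 0.30). Susd4 was at 12.0 to 23.1 CPM in the trained mice, a log2 difference from NASH of 2.39 (SE 0.31) that left it below Control. C4a, a complement component gene whose reads may be shared with the near-identical C4b, was at 11.8 to 20.0 CPM in NASH and 129 to 239 CPM in NASH+Exercise, with 6.63 to 23.3 CPM in Control. Nudt7 and Cyp2u1, with log2 differences from NASH of 1.93 and 1.33, were the other 2. The count of 5 was 6 without NASH+Exercise replicate 8 and 0 when any of the other 5 mice was left out (NASH replicates 5, 19 and 20, NASH+Exercise replicates 18 and 22), and DESeq2 gave 10, all higher, where 0.58% of its genes were. Against Control, 4 of the 21 were higher DEGs in the trained mice (Hsd3b5, Serpina12, Cyp2u1 and C4a) and 2 lower (Cyp8b1 and Susd4), against 10.4% and 3.07% of all genes.

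Of 30 female-biased genes listed, 29 were matched and 21 tested. This list, too, was chosen with earlier results of these data known. In NASH against Control 3 of 21 were higher DEGs, near the 15.3% of all genes, and 5 of 21 lower, against 3.03%. Ntrk2, a neurotrophin receptor, was at 1.67 to 2.5 CPM in Control and 12.2 to 21.1 CPM in NASH. Atp6v0d2, a subunit of the proton pump, was at 0.48 to 1.001 CPM in Control and 3.91 to 20.4 CPM in NASH. Acot3, a peroxisomal acyl-CoA thioesterase, fell from 133 to 178 CPM in Control to 2.79 to 18.3 CPM in NASH. The other DEGs named by the rule were Cyp2a4 (0.43 to 0.66 CPM in Control and 0.81 to 5.47 CPM in NASH), Cyp2b10 (2.35 to 12.7 and 0.04 to 0.42 CPM) and Cyp2c69 (3.002 to 4.45 and 0.21 to 0.23 CPM), P450 genes with near-identical relatives, so that their counts are uncertain. With training, 0 of 21 passed in edgeR, where 0.0367% of all genes were lower DEGs, while 18 of 21 were below their NASH level, against 54.9% of all genes, with a median log2 difference of -1.17. At an unadjusted p under 0.05, 11 were lower, against 10.7% of all genes, and DESeq2 called 4, all lower, where 0.937% of its genes were. Against Control, 10 of 21 were lower DEGs in the trained mice against 3.07% of all genes, and 2, Ntrk2 and Atp6v0d2, higher, near the 10.4% of all genes.

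**Figure D5:**
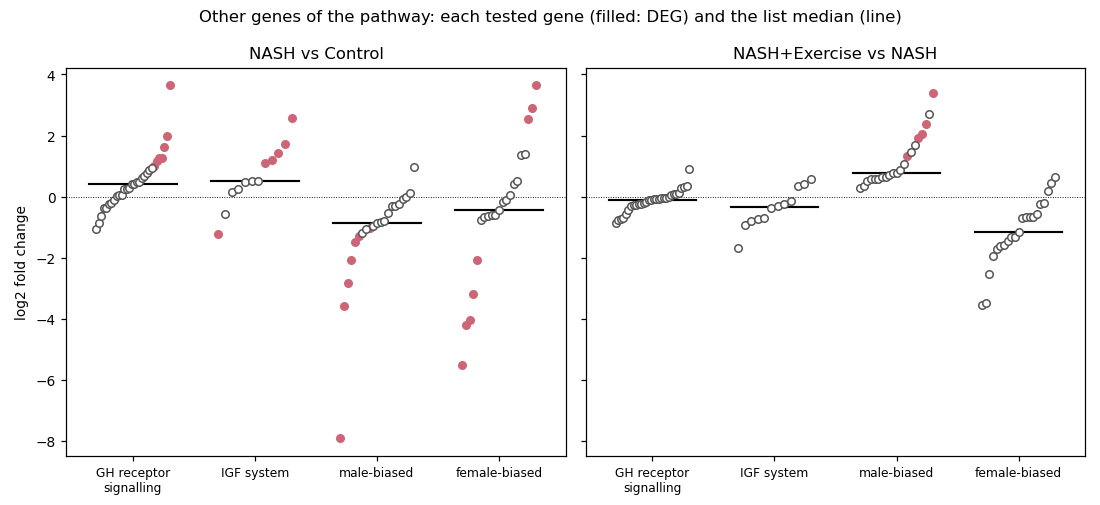
Log2 fold changes of the tested genes of the 4 surrounding lists in NASH against Control (left) and in NASH+Exercise against NASH (right), with 1 point per gene in order of its value, filled points for DEGs and a line at the median. The male-biased genes have a median of -0.85 on the left and 0.78 on the right. The female-biased genes have a median of -0.43 on the left and -1.17 on the right, below 0 in both. Both panels share the NASH mice.

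The genes whose pattern over the 9 mice was most like that of Igf1 were Chuk, Tomm70a, Sfmbt1, Ccdc58 and Tfam, by the root mean square difference of log2 CPM centred on each gene's mean. That difference was 0.06 for Chuk and 0.07 for the other 4. Chuk was at 99.8 CPM on average for Control, 69.0 CPM for NASH and 74.3 CPM for NASH+Exercise. None of the axis genes came close: the nearest were Igfbp2 at 0.28, at rank 2564, and Ghr at 0.29, at rank 3147. Genes of low spread and a modest fall are favoured by this measure.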

How the data were processed

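RNA sequencing of 9 livers was used. Per the labels, reads were processed with HISAT2 2.1.0, Bowtie2 2.2.5 and RSEM 1.2.8 and the build GRCm38.p6. The authors deposited estimated counts (not normalized; 29.0% to 32.8% of values not whole). The authors also deposited FPKM values, scaled by effective transcript length and library total. The TPM values deposited by the authors are likewise scaled by length and sum to the same total in every library. Of 428304 values deposited in more than one place, 0 differed. Symbols were matched for 17728 of 17846 Entrez identifiers, 118 unmatched.

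Counts were rounded and tested with edgeR 4.0.16 (R 4.3.3): filterByExpr (minimum count 10, total 15), TMM, a robust quasi-likelihood fit of 9 mice with group as the only term (6 residual degrees of freedom), Benjamini-Hochberg adjustment over 13619 genes, and a threshold of 0.05 with an absolute log2 fold change above 1 for DEGs. The code was tested on simulated data. Alternatives were RLE size factors, library size alone, no filter, DESeq2 1.42.0, edgeR on 6 mice, limma 3.58.1 on log2(TPM + 1) and log2(TPM + 0.1), and each mouse left out. Ratios were computed with Python 3.11.15. Named genes were all 10 members, up to 3 called genes per list and direction in NASH against Control and in NASH+Exercise against NASH, and the 5 genes most like Igf1. One gene named by this rule is not reported here. The members and lists were chosen with earlier results of these data known.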

Additional observations from a re-analysis of the deposited data

How the results depend on the processing

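No paired analysis was possible because each group held different mice. Of 210 counts of called genes under an alternative, 178 stayed within 1.5 times the reported count and 32 did not. A reported count of 0 that stayed 0, as for the axis members in NASH+Exercise against NASH, was among the 178. Of 390 fold changes of members, 342 kept their direction and their standing as a DEG or not. Of the rest, 40 reversed and 8 were no longer DEGs. Those 8 were all of Igfals in NASH against Control or Igfbp1 in NASH+Exercise against Control, the only member DEGs. The other member differences had no DEG call to lose. Of 96 ratio differences, 91 kept direction and 5 reversed. The causes were not tested.

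With the adjusted p alone, the called axis members were 4 in NASH against Control and 4 in NASH+Exercise against Control, and the called growth hormone signalling genes were 17 and 15; male-biased genes in NASH against Control were 12. Library size alone gave 0 axis members and 11 growth hormone signalling genes in NASH against Control, and 3 male-biased genes in NASH+Exercise against NASH. limma on log2(TPM + 1) gave 0 axis members and 3 IGF system genes in NASH against Control, 0 IGF system genes in NASH+Exercise against Control, and 1 female-biased gene in NASH+Exercise against NASH. On log2(TPM + 0.1) these were 0 axis members and 12 growth hormone signalling genes in NASH against Control, and 3 male-biased genes in NASH+Exercise against NASH. DESeq2 gave 10 male-biased and 4 female-biased genes in NASH+Exercise against NASH, and 2 IGF system genes in NASH+Exercise against Control. Without a filter, 0 axis members were called in NASH+Exercise against Control.

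Leaving out 1 mouse, called axis members in NASH+Exercise against Control ranged from 0 to 1, IGF system genes there from 2 to 3, and male-biased genes in NASH+Exercise against NASH from 0 to 6. The ratio differences that changed sign ranged from -0.47 to 0.14 (Igfals to Igf1, NASH+Exercise against Control), -0.47 to 0.80 (Igfbp2 to Igfbp1, NASH against Control), and -0.43 to 0.12 and -0.29 to 0.26 (Stat5a to Stat5b, NASH against Control and NASH+Exercise against NASH).

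Log2 fold changes that reversed were all of differences that had not passed. With library size alone, log2(TPM + 1) and log2(TPM + 0.1), Igf1 in NASH+Exercise against NASH was -0.12, -0.22 and -0.22. In NASH against Control, Stat5a was 0.31, 0.34 and 0.39, Socs2 0.20, 0.34 and 0.36, and Bcl6 0.34, 0.64 and 0.69. Stat5a in NASH+Exercise against Control was 0.085, 0.028 and 0.026, and against NASH 0.0103 without a filter, 0.035 in DESeq2 and 0.021 in edgeR on 6 mice. Igfbp2 in NASH+Exercise against NASH was 0.00199 in DESeq2. Leaving out 1 mouse, the ranges that crossed 0 were -0.025 to 0.15 for Ghr in NASH+Exercise against Control, -0.091 to 0.017 for Igfbp2 and -0.72 to 0.87 for Cish in NASH+Exercise against NASH, and -0.41 to 0.44 for Socs2 in NASH against Control. Bcl6 ranged from -0.51 to 0.85 in NASH against Control and -1.05 to 0.34 in NASH+Exercise against Control. In NASH against Control, NASH+Exercise against NASH and NASH+Exercise against Control, Stat5a ranged from -0.19 to 0.039, -0.32 to 0.14 and -0.39 to 0.076, and Stat5b from -0.11 to 0.32, -0.29 to 0.15 and -0.14 to 0.25.

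At this depth, precision was limited by the spread between mice, most of all for Socs2, Igfbp1, Bcl6 and Cish.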
